A study of Homo sapiens with 18 samples.

Results

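The HOX genes of U2OS cells were followed through an experiment on DNMT3A and cytarabine. Members were taken by name from the deposited gene table: every symbol beginning with HOXA, HOXB, HOXC or HOXD, coding or antisense, plus the long noncoding RNAs HOTAIR and HOTTIP. This gave 52 of 25296 genes, with 16 in the HOXA cluster, 13 in HOXB, 14 in HOXC and 9 in HOXD. Of these, 37 were coding. After a filter on low counts 44 members were tested among 18226 genes. The 8 members left out were HOXA10-AS, HOXB-AS1, HOXB-AS2, HOXB2, HOXC-AS1, HOXC12, HOXD4 and HOXD13.

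U2OS is an established human osteosarcoma line. Total RNA was sequenced from 3 derived lines for overexpression, here EV (the MigR1 vector with no insert), WT (DNMT3A of the wild type) and MUT (a mutant DNMT3A). RNA was taken from untreated cultures of every line and from cultures kept for 24 h in 10 µM cytarabine, a cytidine analogue that stalls DNA replication, with 3 biological replicates per group and 18 libraries in all. The study asked how the mutant alters the cytarabine response. The 6 groups were thus untreated and treated EV, untreated and treated WT, and untreated and treated MUT. The mutation is R882C in the title of the series but R882H in the labels of its samples. Cells labelled untreated appear as a vehicle control in the description of the series. The labels do not say whether a line was a pool or 1 clone, so the effect of a construct and the derivation of its line cannot be told apart.

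HOX genes encode homeodomain transcription factors that give body segments and limb parts their identity. They lie in 4 clusters, in each of which paralogues numbered from the 3′ to the 5′ end are switched on in that order along the body axis. Polycomb complexes, which silence, and trithorax complexes, which keep genes on, hold the adult pattern in place, and DNA methylation marks the clusters in many tumours. DNMT3A is a de novo DNA methyltransferase, and HOX genes of the A and B clusters are known for their high expression in leukaemias with mutant DNMT3A.

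Library totals were 15.4 to 21.9 M estimated counts, and the common coefficient of variation between replicates was 0.104. Replicates were least alike in untreated MUT (coefficient 0.216) and treated EV (0.133), against 0.0398 to 0.0696 in the other groups. DNMT3A averaged 26.9 ± 0.662 CPM (SD, n = 3) in untreated EV, 133 ± 5.17 in untreated WT and 456 ± 185 in untreated MUT, where the libraries held 499.7, 615 and 254 CPM. CPM are counts per M counts of the scaled library. RNA of the cells' own DNMT3A gene and of the introduced one was not separated. The bone-lineage regulator RUNX2 was at 29.6 to 53.2 CPM and SPARC at 804.6 to 1171 CPM over the 18 libraries. BGLAP, made by mature osteoblasts, did not exceed 0.437 CPM.

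In untreated cells, the called members that separated MUT furthest from EV and WT were HOXD11 and HOXD10, while the neighbouring HOXD8 differed little and in the opposite direction. The upstream sequences of these genes are shown because DNA methyltransferases act on CG dinucleotides. The 250 bases before each start come from RefSeq on GRCh38.p14, 5′ to 3′ on the plus strand, with every CG in capitals. The windows are chr2:176107030-176107279 for HOXD11, chr2:176116528-176116777 for HOXD10 and chr2:176129455-176129704 for HOXD8. Those of HOXD11 and HOXD10 lie within the spans of the counted genes, so each precedes a RefSeq start and not the first base of the counted gene.
HOXD11: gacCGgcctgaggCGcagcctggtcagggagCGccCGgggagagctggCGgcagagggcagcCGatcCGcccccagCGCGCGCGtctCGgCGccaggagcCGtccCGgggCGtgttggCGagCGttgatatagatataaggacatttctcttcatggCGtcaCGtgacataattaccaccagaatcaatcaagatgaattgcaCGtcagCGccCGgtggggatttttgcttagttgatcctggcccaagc
HOXD10: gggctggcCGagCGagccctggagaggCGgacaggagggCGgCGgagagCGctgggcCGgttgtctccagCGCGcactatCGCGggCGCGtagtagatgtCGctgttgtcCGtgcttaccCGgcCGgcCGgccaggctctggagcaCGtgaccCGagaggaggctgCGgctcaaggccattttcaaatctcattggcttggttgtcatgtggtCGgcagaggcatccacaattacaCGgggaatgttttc
HOXD8: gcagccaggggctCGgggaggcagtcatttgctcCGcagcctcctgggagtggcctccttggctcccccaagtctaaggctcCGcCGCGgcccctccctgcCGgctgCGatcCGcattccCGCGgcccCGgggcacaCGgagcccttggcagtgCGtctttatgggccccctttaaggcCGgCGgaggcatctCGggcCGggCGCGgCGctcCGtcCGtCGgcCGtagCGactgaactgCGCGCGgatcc

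HOXD11 and HOXD10 each held 23 CG in this window and HOXD8 held 28. CG reads the same on both strands. Over 35116 RefSeq promoter windows of this length the median was 11 CG, 25.8% held at least 23 and 15.9% held at least 28. A window was found for 27 of the 52 members, with 35 windows in all, and their median was 14 CG. HOXA3 and HOXA-AS2 had windows with 0 CG, and the window of HOXA13, at 40, was the richest of the 35. Methylation was not measured, so these counts only describe the sequence.

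Levels of the HOX genes ranged widely. Mean CPM over all libraries was above 10 for 12 members, above 1 for 32 and at most 1 for 20. Per kb of exon, HOXB9 was highest at 25.7 CPM per kb, followed by HOXB7 at 19.7, HOXC13 at 11.7 and HOXC9 at 10.4. HOXC10 stood at 7.01 CPM per kb, HOXA10 at 6.37, HOXB13 at 5.06, HOXC6 at 4.80, HOXD9 at 4.36, HOXA9 at 4.33 and HOXD8 at 4.22. The genes named here lie in the middle or at the 5′ end of their clusters. HOXD-AS2, the third of its cluster, was at 1.45 CPM per kb. The lowest members included HOXD13, whose counts summed to 0 in untreated EV and in untreated MUT. A count of 0 in a library allows up to 3 counts, and this limit covers counting error only.

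**Figure D1:**
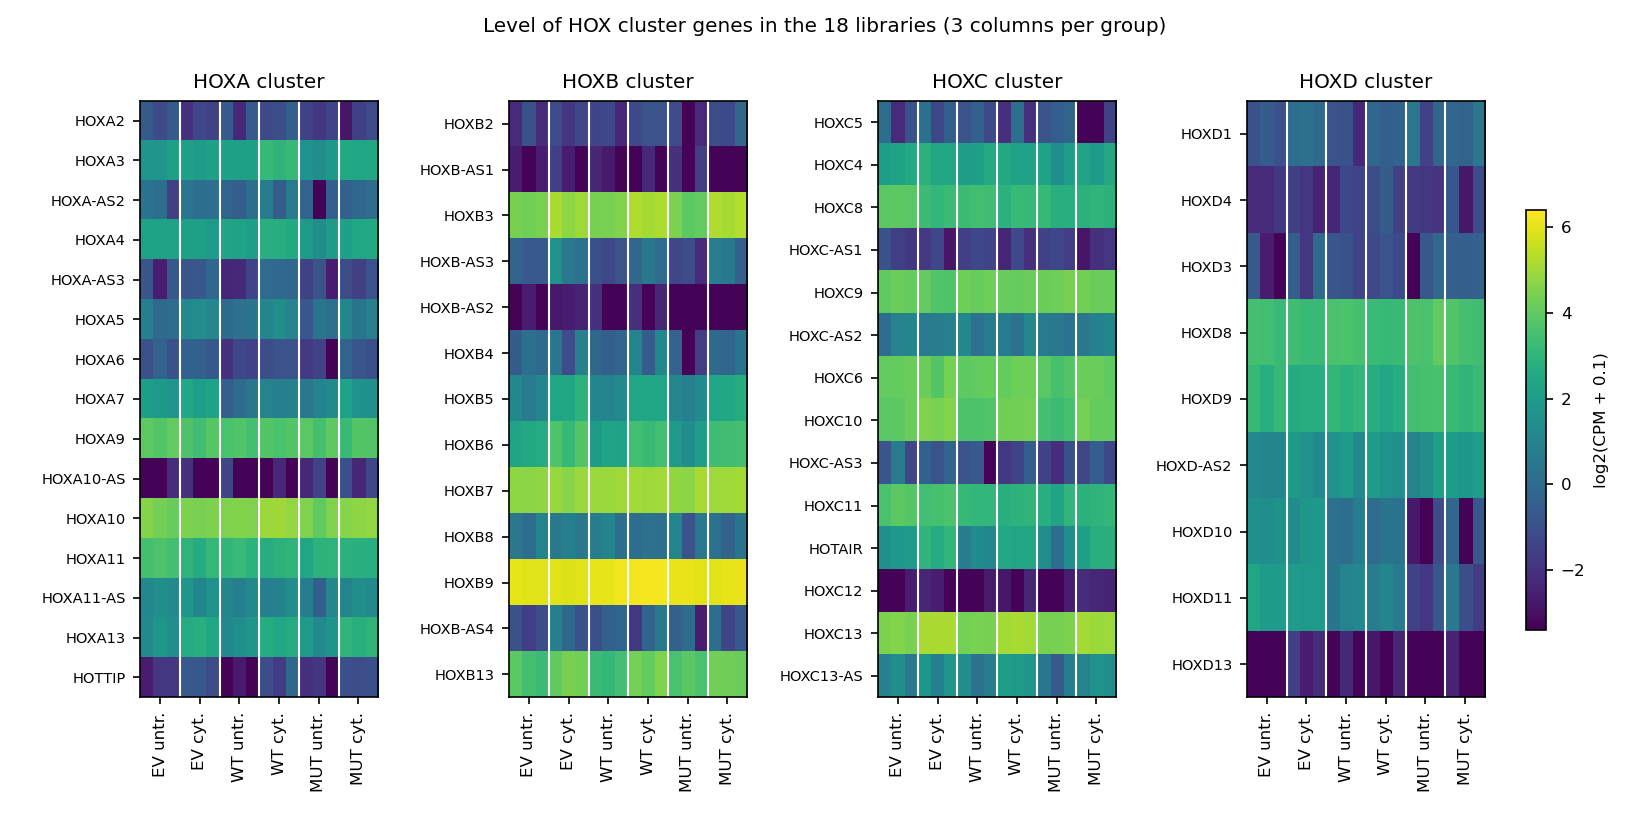
Heat map of log2(CPM + 0.1) for the HOX members shown, 1 panel per cluster, genes ordered along each cluster from its 3′ end to its 5′ end and columns giving the 18 libraries with 3 per group (untr., untreated; cyt., cytarabine). HOXB9, HOXB7, HOXC13 and HOXB3 are among the brightest genes in every group, and HOXD10 and HOXD11 darken from EV through WT to MUT.

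HOXB carried the largest share of summed HOX counts in each of the 18 libraries, from 36.7% to 44.5%. HOXC followed with 27.5% to 33.9%, HOXA with 18.6% to 22.9% and HOXD with 5.15% to 10.7%. Each library held 4597 to 9705 HOX counts in all. Dividing by exon length changed the mean shares to 41.9% for HOXB, 32.0% for HOXC, 17.7% for HOXA and 8.47% for HOXD, in the same order.

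Summed over the 52 members, HOX RNA averaged 353 ± 4.63 CPM (SD, n = 3) in untreated EV, 334 ± 8.30 in untreated WT and 315 ± 23.0 in untreated MUT. With cytarabine the sums were 402 ± 24.8, 424 ± 6.82 and 402 ± 10.5 CPM. In each line the lowest treated library lay above the highest untreated library. HOXB had untreated and treated means of 133 and 162 CPM in EV, 141 and 185 in WT and 133 and 174 in MUT. The HOXA means were 77.4 and 81.4 CPM in EV, 68.7 and 94.3 in WT and 63.5 and 84.4 in MUT. HOXC averaged 114 and then 130.2 CPM in EV, 98.1 and 122 in WT and 88.2 and 117 in MUT. Only the HOXD mean was not higher with cytarabine in any line, at 28.5 and 27.7 CPM in EV, 26.7 and 22.8 in WT and 30.0 and 27.5 in MUT. These sums were not tested.

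**Figure D2:**
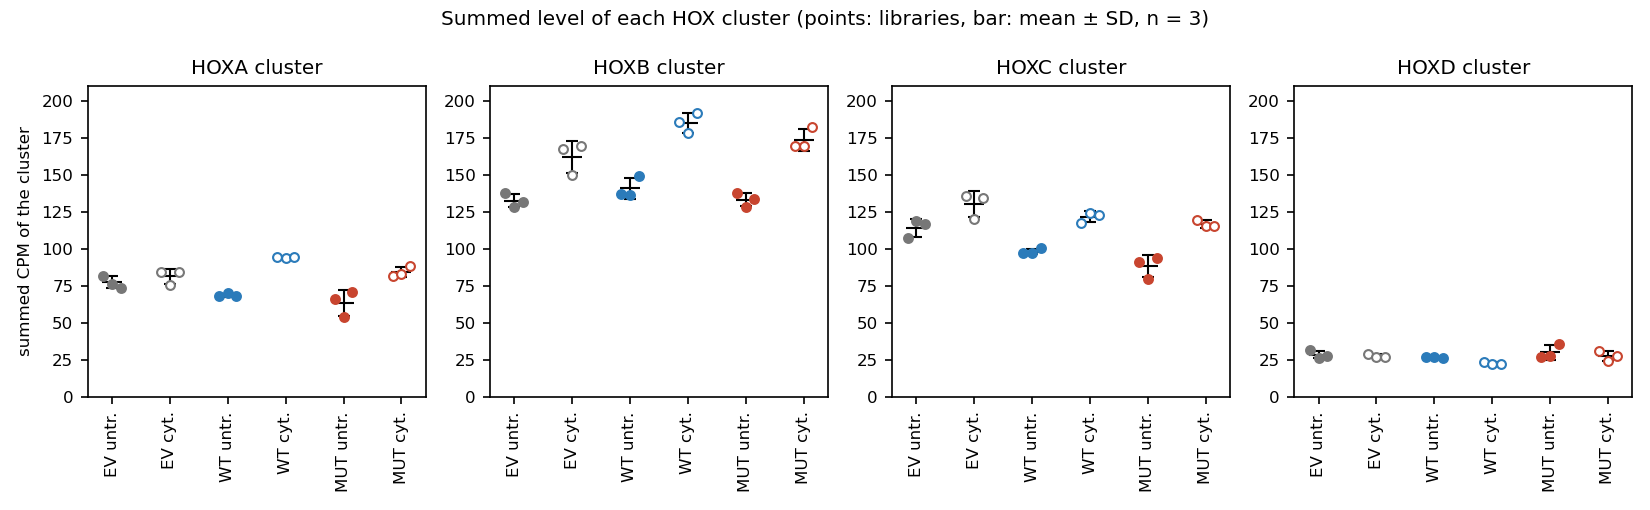
Summed CPM of each cluster's members (vertical axis) in the 6 groups, with a point per library and bars for the mean ± SD of 3 libraries; filled points are untreated. Treated libraries sit above untreated ones for HOXB in all 3 lines, and HOXD stays between 22.2 and 35.5 CPM throughout.

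The HOX genes called with cytarabine were mostly higher, in each of the 3 lines. In EV, 15 of 44 tested members passed an adjusted p of 0.05 (11 higher, 4 lower), which is 34.1% against 49.1% of all tested genes. In WT there were 21 (19 higher, 2 lower), or 47.7% against 49.0%, and in MUT 20 (18 higher, 2 lower), or 45.5% against 56.3%. The share of members called was therefore near or below the background. Higher calls made up 25%, 43.2% and 40.9% of members, beside 26.1%, 26.3% and 30.4% of all genes, and lower calls 9.09%, 4.55% and 4.55% beside 22.9%, 22.7% and 25.9%. The median log2 fold change over the 44 members was 0.32 in EV, 0.35 in WT and 0.57 in MUT, beside 0.05, 0.03 and 0.05 over all genes. In RNA from whole cultures, more cells expressing a gene and more RNA per cell cannot be told apart. All p-values rest on the spread between these cultures within groups, estimated over all 6 groups together. Untreated MUT (coefficient 0.216) and treated EV (0.133) varied more than the common 0.104, so p-values of their comparisons may be too small.

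With 11 members called higher in all 3 lines, the share was 25% of the 44 against 18.9% of all genes. They included HOXA5, HOXA13, HOXB3, HOXB5, HOXB6, HOXB13, HOXB-AS3, HOXC10, HOXC13 and HOTAIR. HOXD9 was lower in all 3 lines, 2.27% against 16.4% of all genes. No member was called in opposite directions in different lines, beside 53 of the 18226 genes. No line gave a call for 17 of the 44 members, beside 5678 of the 18226 genes.

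Summed markers of some other lineages, all at low levels, did not overlap between treated and untreated libraries. The summed CPM of 5 epithelial markers ran from 5.78 to 6.78 in untreated EV and from 9.44 to 11.3 in treated EV, from 3.02 to 3.92 and 4.65 to 6.19 in WT, and from 5.41 to 6.97 and 7.66 to 12.7 in MUT. Those of 4 endothelial markers were 2.64 to 3.10 and 5.31 to 6.54 in EV, 1.15 to 1.53 and 3.34 to 3.999 in WT, and 2.91 to 4.46 and 8.09 to 10.8 in MUT. Sums of 3 neural markers also did not overlap between treated and untreated libraries of any line. Pluripotency markers overlapped in WT and not in EV or MUT. Haematopoietic markers overlapped in EV and WT but not in MUT, at 0.228 to 0.755 untreated and 1.00 to 1.05 treated. Among defining markers, CD14 and SOX10 had a median of 0 CPM, and PECAM1 did not exceed 0.418 CPM. Other markers of the same lists were higher, with CDH5 reaching 6.37 CPM, VWF 4.17, SNAP25 9.62, PTPRC 1.41 and EPCAM 4.01. Sums of 7 osteoblast markers overlapped between treated and untreated libraries in EV and MUT. In WT those sums ran from 1230 to 1292 CPM untreated and from 1121 to 1220 CPM treated. The part of such shifts in the HOX results was not tested.

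**Figure D3:**
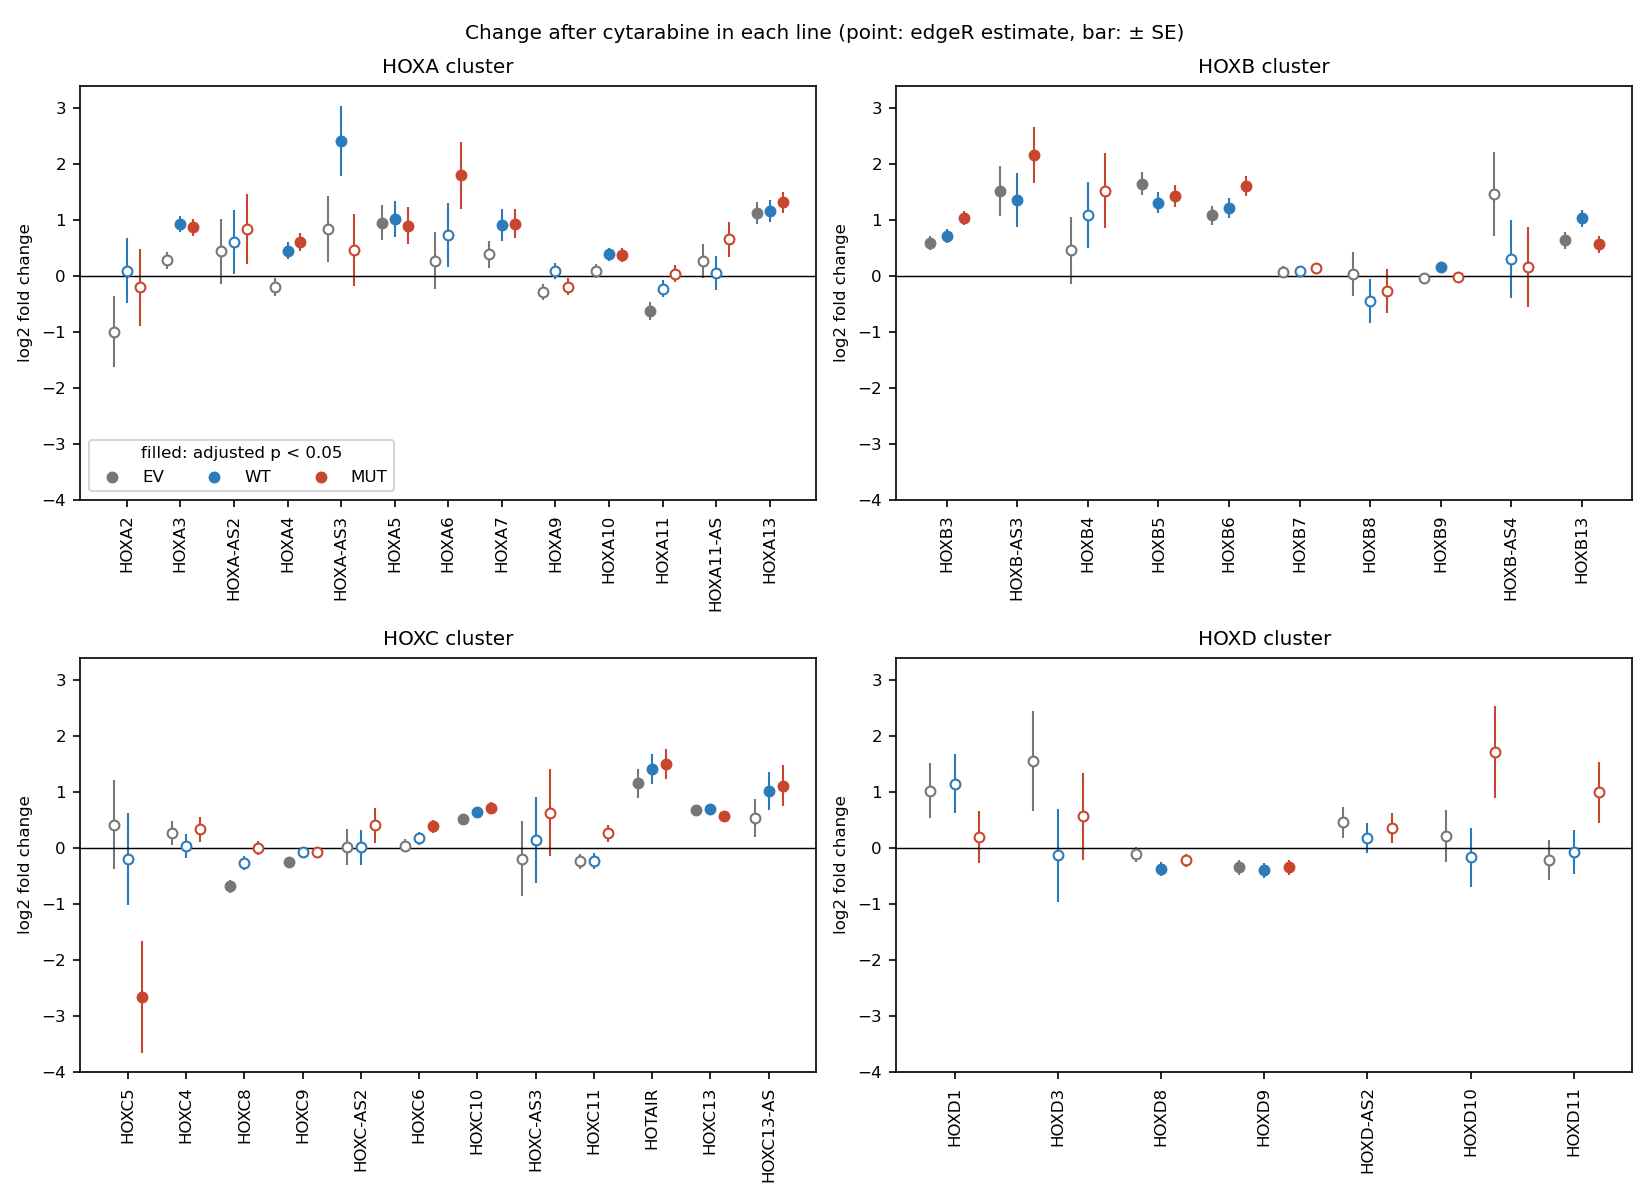
log2 fold change of treated against untreated libraries (vertical axis, ± SE) for tested members of each cluster in EV, WT and MUT; filled points have an edgeR adjusted p under 0.05. HOTTIP is not drawn because its untreated libraries hold at most 3 counts. Filled points lie above 0 for HOXB3, HOXB5, HOXB6 and HOXB13, and HOXB7 and HOXB9 lie near 0.

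In the HOXB cluster, 5, 6 and 5 of 10 tested members rose in EV, WT and MUT and none fell. The risers were 50%, 60% and 50%, beside 26.1%, 26.3% and 30.4% of all genes called higher. HOXB5 and HOXB6, genes of the middle of the cluster that act in the trunk, were the clearest risers. HOXB5 measured 2.16, 1.52 and 2.03 CPM in untreated EV and 5.04, 5.31 and 7.61 CPM in treated EV. Untreated WT gave HOXB5 values of 2.06, 1.90 and 2.20 CPM, and treated WT gave 5.01, 5.13 and 5.22 CPM. In MUT, HOXB5 was at 2.11, 1.70 and 2.46 CPM untreated and 5.23, 5.51 and 6.28 CPM treated. Treated libraries lay above untreated ones in every line, with log2 fold changes of 1.66 ± 0.20 (SE), 1.32 ± 0.20 and 1.44 ± 0.19 and edgeR adjusted p of 1.3e-06, 1.59e-05 and 4.1e-06. In EV, HOXB6 went from 4.85, 5.73 and 6.09 CPM untreated to 12.8, 8.86 and 13.6 CPM treated. The corresponding HOXB6 values were 3.78, 4.87 and 4.62 and then 10.7, 9.35 and 10.8 CPM in WT. For MUT, HOXB6 gave 3.66, 2.52 and 4.11 CPM and then 10.02, 10.4 and 11.03 CPM. The HOXB6 groups did not overlap within a line either. Its log2 fold changes were 1.09 ± 0.17 in EV, 1.22 ± 0.17 in WT and 1.60 ± 0.18 in MUT (edgeR adjusted p 3.14e-05, 1.04e-05 and 3.81e-07).

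HOXB3, a hindbrain gene, rose by 0.59 ± 0.12, 0.72 ± 0.12 and 1.04 ± 0.12 (log2) in the EV, WT and MUT lines (edgeR adjusted p 0.000445, 5.72e-05 and 5.86e-07). Exons of HOXB3, HOXB6 and the antisense transcript HOXB-AS3 overlap, and the counting of strand is not known. The sum of the 3 rose by 0.74 ± 0.12, 0.82 ± 0.12 and 1.17 ± 0.12, with edgeR adjusted p of 3.68e-05, 9.77e-06 and 1.13e-07. HOXB-AS3 alone was below 3 CPM in every library. The EV replicates held HOXB13 at 14.96, 11.3 and 9.90 CPM untreated and 15.99, 20.7 and 19.8 CPM treated. HOXB13 stood at 9.76, 8.57 and 10.9 CPM in untreated WT and 20.3, 16.9 and 22.6 CPM in treated WT. Among MUT libraries, HOXB13 reached 11.8, 14.7 and 11.99 CPM untreated and 19.6, 19.1 and 18.2 CPM treated. HOXB13, which marks the prostate and the end of the body axis, was higher in treated than in untreated libraries of each line. Its log2 fold changes were 0.64 ± 0.15, 1.03 ± 0.15 and 0.57 ± 0.15 (edgeR adjusted p 0.00136, 1.17e-05 and 0.00275).

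HOXB9 measured 64.8, 60.9 and 61.1 CPM in untreated EV and 61.3, 58.8 and 61.8 CPM in treated EV. Untreated WT gave HOXB9 values of 67.3, 65.9 and 73.04 CPM, and treated WT gave 75.2, 77.4 and 77.5 CPM. In MUT, HOXB9 was at 66.7, 66.7 and 61.9 CPM untreated and 60.8, 64.8 and 68.5 CPM treated. HOXB9, which patterns the ribs, overlapped between treated and untreated libraries in EV and MUT and not in WT. It rose in WT by 0.16 ± 0.06 on the log2 scale (edgeR adjusted p 0.0439), a call lost without 5 of the 6 WT libraries in turn and under 3 of 8 other settings. The estimates were -0.04 ± 0.06 in EV and -0.01 ± 0.06 in MUT. In EV, HOXB7 went from 26.7, 26.1 and 27.3 CPM untreated to 29.2, 25.3 and 29.98 CPM treated. The corresponding HOXB7 values were 30.01, 29.9 and 31.8 and then 32.6, 31.5 and 33.2 CPM in WT. For MUT, HOXB7 gave 27.1, 25.98 and 34.6 CPM and then 31.2, 31.6 and 34.1 CPM. HOXB7, a trunk gene, had log2 estimates of 0.08 ± 0.09, 0.08 ± 0.09 and 0.14 ± 0.09, none called by edgeR. HOXB4, HOXB8 and HOXB-AS4 averaged under 2 CPM in each group and were not called.

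In the HOXA cluster 3, 9 and 8 of 15 tested members rose in EV, WT and MUT, and HOXA11 fell in EV. The risers were 20%, 60% and 53.3%, beside 26.1%, 26.3% and 30.4% of all genes called higher. Whether these counts differ between the lines was not tested. HOXA13, a gene of the hand, foot and hindgut, rose from 2.75 ± 0.574 to 6.05 ± 0.804 CPM (SD, n = 3) in EV, from 2.65 ± 0.518 to 5.92 ± 0.455 in WT and from 2.97 ± 0.599 to 7.46 ± 0.540 in MUT. The HOXA13 log2 fold changes were 1.13 ± 0.19, 1.16 ± 0.19 and 1.32 ± 0.19 (edgeR adjusted p 6.71e-05, 4.29e-05 and 6.47e-06). HOXA5, needed for lung development, rose by 0.96, 1.02 and 0.90 from about 1 CPM. Each of these calls was lost without 2 or 3 of the 6 libraries in turn, and that in MUT also in a fit of its groups alone.

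HOXA3, HOXA4, HOXA7 and HOXA10 rose in WT and MUT and were not called in EV. HOXA3 measured 3.21, 3.21 and 4.37 CPM in untreated EV and 4.55, 3.995 and 4.53 CPM in treated EV. Untreated WT gave HOXA3 values of 4.51, 4.23 and 4.56 CPM, and treated WT gave 8.81, 7.73 and 8.90 CPM. In MUT, HOXA3 was at 2.86, 2.58 and 3.48 CPM untreated and 5.76, 5.22 and 5.40 CPM treated. HOXA3, which acts in the thymus and parathyroid primordia, did not overlap between treated and untreated libraries of WT or of MUT. It rose by 0.93 ± 0.15 in WT and 0.87 ± 0.16 in MUT on the log2 scale (edgeR adjusted p 3.24e-05 and 9.47e-05), and its EV estimate was 0.28 ± 0.16. In EV, HOXA4 went from 4.73, 4.73 and 4.67 CPM untreated to 4.35, 4.43 and 3.59 CPM treated. The corresponding HOXA4 values were 4.90, 4.76 and 4.07 and then 6.68, 6.48 and 5.71 CPM in WT. For MUT, HOXA4 gave 3.71, 2.70 and 3.94 CPM and then 4.53, 5.46 and 5.84 CPM. In EV the treated HOXA4 values all lay below the untreated ones, with an uncalled estimate of -0.20 ± 0.16 (edgeR adjusted p 0.345). HOXA4 rose by 0.46 ± 0.16 in WT and 0.61 ± 0.16 in MUT (edgeR adjusted p 0.0224 and 0.00392). The WT call of HOXA4 was lost without 3 of the 6 libraries in turn. Whether these genes responded differently in EV is covered by the test of the difference between effects.

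HOXA9 and HOXA10 are the HOXA genes best known from leukaemia. The EV replicates held HOXA10 at 24.01, 20.4 and 17.1 CPM untreated and 22.2, 20.98 and 22.3 CPM treated. HOXA10 stood at 22.6, 23.02 and 22.8 CPM in untreated WT and 30.1, 31.7 and 28.00 CPM in treated WT. Among MUT libraries, HOXA10 reached 22.4, 15.8 and 22.3 CPM untreated and 24.6, 26.1 and 28.1 CPM treated. HOXA10 rose by 0.39 ± 0.12 in WT and 0.38 ± 0.12 in MUT (edgeR adjusted p 0.00997 and 0.0119), the latter lost without 2 of the 6 MUT libraries in turn, with the authors' scaling factors and in a fit of the MUT groups alone. HOXA9 measured 15.5, 13.6 and 16.6 CPM in untreated EV and 12.7, 10.6 and 14.2 CPM in treated EV. Untreated WT gave HOXA9 values of 11.9, 13.3 and 11.4 CPM, and treated WT gave 13.5, 11.9 and 13.5 CPM. In MUT, HOXA9 was at 14.6, 11.3 and 15.5 CPM untreated and 9.45, 13.7 and 13.3 CPM treated. HOXA9 was not called in any line, with log2 estimates of -0.28 ± 0.15, 0.09 ± 0.15 and -0.19 ± 0.15. Summing HOXA9, HOXA10 and HOXA10-AS, which overlap, left a rise in WT (0.29 ± 0.10, edgeR adjusted p 0.0263) and no call in MUT (0.18 ± 0.10). In EV, HOXA11 went from 11.3, 12.5 and 10.9 CPM untreated to 7.73, 6.06 and 8.64 CPM treated. The corresponding HOXA11 values were 8.09, 9.31 and 7.64 and then 6.36, 7.30 and 7.83 CPM in WT. For MUT, HOXA11 gave 5.22, 7.55 and 7.77 CPM and then 7.34, 7.04 and 6.71 CPM. HOXA11, a forearm gene, fell in EV by 0.62 on the log2 scale (edgeR adjusted p 0.00224), with no overlap of the groups. The HOXA11 estimates were -0.22 ± 0.15 in WT and 0.04 ± 0.16 in MUT. HOXA11 and HOXA11-AS overlap by 726 exon bases, and their sum also fell in EV (-0.43 ± 0.14, edgeR adjusted p 0.0179).

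In the HOXC cluster 3, 4 and 5 of 12 tested members rose in EV, WT and MUT, and 2, 0 and 1 fell. The risers were 25%, 33.3% and 41.7%, beside 26.1%, 26.3% and 30.4% of all genes. Those that fell were 16.7%, 0% and 8.33%, beside 22.9%, 22.7% and 25.9%. HOXC13, a gene of hair and nails at the 5′ end of its cluster, rose in each line. HOXC13 measured 22.02, 23.8 and 21.4 CPM in untreated EV and 35.9, 36.02 and 35.3 CPM in treated EV. Untreated WT gave HOXC13 values of 20.1, 21.3 and 20.95 CPM, and treated WT gave 32.8, 35.99 and 32.9 CPM. In MUT, HOXC13 was at 20.7, 21.1 and 22.1 CPM untreated and 33.8, 30.5 and 31.3 CPM treated. No treated HOXC13 value reached down to an untreated one. The log2 fold changes were 0.67 ± 0.07, 0.71 ± 0.07 and 0.58 ± 0.07, with edgeR adjusted p of 3.18e-07, 1.7e-07 and 1.33e-06. In EV, HOXC10 went from 14.6, 15.3 and 17.8 CPM untreated to 22.6, 21.4 and 23.9 CPM treated. The corresponding HOXC10 values were 12.5, 12.3 and 13.2 and then 19.3, 19.6 and 20.2 CPM in WT. For MUT, HOXC10 gave 11.1, 10.00 and 11.6 CPM and then 20.1, 16.9 and 16.9 CPM. HOXC10, which acts in the lumbar region and hindlimb, was likewise higher in all 9 treated libraries than in the untreated libraries of its line. It rose by 0.51 ± 0.10, 0.64 ± 0.10 and 0.72 ± 0.10 (edgeR adjusted p 0.00021, 2.26e-05 and 5.5e-06).

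HOTAIR, a long noncoding RNA of the HOXC cluster reported to bind chromatin-silencing complexes, rose in all 3 lines. The EV replicates held HOTAIR at 2.75, 3.45 and 3.81 CPM untreated and 7.92, 6.06 and 8.25 CPM treated. HOTAIR stood at 1.52, 2.38 and 2.14 CPM in untreated WT and 5.61, 5.08 and 5.37 CPM in treated WT. Among MUT libraries, HOTAIR reached 2.71, 1.01 and 2.51 CPM untreated and 4.35, 6.66 and 7.02 CPM treated. Treated libraries exceeded untreated ones in each line, with log2 fold changes of 1.16 ± 0.26, 1.41 ± 0.27 and 1.51 ± 0.27 (edgeR adjusted p 0.000939, 0.000236 and 8.82e-05). The HOTAIR and HOXC11 genes lie on opposite strands and overlap (chromosome 12, 53962308 to 53974956, minus strand, against 53973126 to 53977643), although no annotated exon bases are shared. With the counts of both summed, the rise passed the threshold in MUT only (0.68 ± 0.16, edgeR adjusted p 0.001). The estimates for the sum were 0.16 ± 0.15 in EV and 0.26 ± 0.15 in WT. HOXC11, not called with cytarabine in any line, made up most of the sum, at 13.6 CPM beside 3.33 for HOTAIR in untreated EV. The sum therefore cannot decide whether HOTAIR rose. Tested singly, HOTAIR stayed called in all 14 alternative settings in each line.

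HOXC8, a thoracic gene, fell in EV. HOXC8 measured 14.8, 15.3 and 14.7 CPM in untreated EV and 9.78, 8.49 and 9.49 CPM in treated EV. Untreated WT gave HOXC8 values of 9.76, 10.6 and 10.3 CPM, and treated WT gave 7.33, 9.40 and 8.85 CPM. In MUT, HOXC8 was at 8.83, 6.86 and 6.80 CPM untreated and 7.43, 7.996 and 7.28 CPM treated. Its log2 fold change in EV was -0.69 ± 0.12 (edgeR adjusted p 8.23e-05), with every treated EV library below the untreated ones. The HOXC8 estimates were -0.27 ± 0.12 in WT and 0.01 ± 0.12 in MUT, both uncalled, although the treated WT libraries also lay below the untreated ones. Mean treated levels were closer between the lines than untreated levels. In EV, HOXC9 went from 16.1, 17.8 and 16.8 CPM untreated to 16.3, 13.2 and 13.00 CPM treated. The corresponding HOXC9 values were 18.6, 17.5 and 18.9 and then 17.4, 16.9 and 18.04 CPM in WT. For MUT, HOXC9 gave 18.3, 18.7 and 20.7 CPM and then 19.9, 17.6 and 17.6 CPM. HOXC9, which specifies thoracic motor neurons, overlapped between the EV groups and fell by 0.25 on the log2 scale (edgeR adjusted p 0.0386). That HOXC9 call was lost without 4 of the 6 EV libraries in turn and under 3 of 8 other settings. HOXC5 was called lower in MUT from counts of 9, 10 and 13 untreated and 0, 0 and 6 treated. HOXC4 and HOXC6 share 484 exon bases and HOXC5 lies within the span of HOXC4, so reads could be split between them. In an alternative chosen after seeing the data, the sum of HOXC4, HOXC5 and HOXC6 rose in MUT, by 0.33 ± 0.12 (edgeR adjusted p 0.023). HOXC6 alone rose in MUT by 0.39 ± 0.12 (edgeR adjusted p 0.0115), a call lost without the second untreated MUT library. The HOXC5 call was lost without 3 of the 6 libraries in turn.

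None of the 7 tested HOXD members was called higher in any line, beside 26.1%, 26.3% and 30.4% of all genes. Estimates were above 0 for 4, 2 and 5 of the 7 in EV, WT and MUT. HOXD9 fell in all 3 lines and HOXD8 fell in WT. HOXD9 measured 8.82, 6.54 and 8.92 CPM in untreated EV and 6.11, 6.49 and 6.50 CPM in treated EV. Untreated WT gave HOXD9 values of 8.48, 7.14 and 8.30 CPM, and treated WT gave 6.36, 5.46 and 6.38 CPM. In MUT, HOXD9 was at 10.7, 11.6 and 11.99 CPM untreated and 9.32, 8.04 and 9.59 CPM treated. HOXD9 libraries did not overlap between the groups of a line, and the log2 fold changes were -0.35 ± 0.13, -0.39 ± 0.13 and -0.35 ± 0.13 (edgeR adjusted p 0.0394, 0.0196 and 0.0266). The HOXD9 call was lost without 5 of 6 libraries in turn in EV, 3 of 6 in WT and 1 of 6 in MUT. It was also lost under 3 of 8 other settings in EV, and in a fit of the MUT groups alone in MUT. The EV replicates held HOXD8 at 11.2, 10.7 and 9.41 CPM untreated and 10.5, 9.30 and 9.15 CPM treated. HOXD8 stood at 11.97, 12.3 and 11.5 CPM in untreated WT and 9.51, 8.92 and 9.19 CPM in treated WT. Among MUT libraries, HOXD8 reached 12.6, 11.9 and 16.4 CPM untreated and 13.3, 11.3 and 10.5 CPM treated. HOXD8 overlapped between treated and untreated libraries in EV and MUT. Its log2 fold change in WT was -0.37 ± 0.13 (edgeR adjusted p 0.0196), lost without 3 of the 6 WT libraries. HOXD8 shares 642 exon bases with HOXD-AS2, and the sum of the 2 was not called in WT (-0.25 ± 0.13). HOXD-AS2 measured 2.34, 2.04 and 2.03 CPM in untreated EV and 3.77, 2.87 and 2.22 CPM in treated EV. Untreated WT gave HOXD-AS2 values of 2.84, 3.49 and 2.14 CPM, and treated WT gave 3.85, 2.97 and 2.76 CPM. In MUT, HOXD-AS2 was at 1.96, 2.64 and 4.45 CPM untreated and 3.998, 3.35 and 4.18 CPM treated. HOXD-AS2 was not called in any of the 12 comparisons. HOXD10 and HOXD11 were not called in any line when tested singly. Their sum was higher in treated than in untreated MUT by 1.26 ± 0.52 (edgeR adjusted p 0.0445), although the libraries of the groups overlapped.

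Of 11 tested noncoding members, 2, 5 and 3 were called in EV, WT and MUT, all higher. These were 18.2%, 45.5% and 27.3%, below the 49.1%, 49.0% and 56.3% of all genes. HOTTIP, a transcript from the 5′ end of the HOXA cluster linked to histone methyltransferase recruitment, gave only 96 counts in all libraries. Its counts were 1, 3 and 3 in untreated EV and 11, 8 and 8 in treated EV. In WT they were 0, 1 and 0 and then 8, 4 and 17. In MUT they were 3, 3 and 0 and then 9, 8 and 9. Treated counts were thus above untreated counts in every library of a line, and the edgeR call was made in WT alone. Pooled over WT libraries and scaled for depth the ratio was 27.4, with a 95% counting interval of 4.55 to 1120 that leaves out the spread between cultures. HOXA-AS3 averaged under 1 CPM in each group and was called in WT alone. HOXC13-AS rose by 1.02 ± 0.34 in WT and 1.12 ± 0.37 in MUT (edgeR adjusted p 0.0183 and 0.0142), and shares 172 exon bases with HOXC13. Its calls were lost without 3 of the 6 WT libraries and 2 of the 6 MUT libraries in turn.

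HOX genes also differed between the untreated lines, and the overexpressing lines were mostly lower. MUT differed from EV in 10 members (2 higher, 8 lower), 22.7% against 19.9% of all genes. WT differed from EV in 5, all lower, 11.4% against 11.7%, and MUT differed from WT in 6 (2 higher, 4 lower), 13.6% against 21.2%. These shares were near or below those of all genes. Which line differed from EV in more members depended on the fit. In fits of only the groups compared, more members were called for WT against EV than for MUT against EV. The coefficient of variation was 0.216 in untreated MUT and 0.0398 in untreated EV and WT. Between MUT and EV, lower calls made up 18.2% of members beside 10.0% of all genes, and higher calls 4.55% beside 9.88%. Between WT and EV, lower calls made up 11.4% beside 7.36% and higher calls 0% beside 4.30%. Between MUT and WT the shares were 9.09% lower beside 9.54% and 4.55% higher beside 11.7%. The median log2 difference over the members was -0.33 between MUT and EV and -0.13 between WT and EV, with 0.00 over all genes in both. Leaving out HOTTIP, which was at or under 3 counts in all 9 untreated libraries, gave -0.36 and -0.11. Both comparisons share the untreated EV libraries. All called members were coding.

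HOXD11 and HOXD10 gave the widest called differences of untreated MUT from EV and from WT, while HOXA7 gave the widest between WT and EV. HOXD10 and HOXD11 act in the forearm, the hindlimb and the lumbar spine. HOXD11 measured 5.14, 3.97 and 3.81 CPM in untreated EV and 3.81, 3.68 and 3.68 CPM in treated EV. Untreated WT gave HOXD11 values of 1.23, 1.85 and 2.14 CPM, and treated WT gave 1.53, 2.05 and 1.40 CPM. In MUT, HOXD11 was at 0.251, 0.189 and 0.514 CPM untreated and 1.32, 0.383 and 0.218 CPM treated. Every untreated WT library lay below every untreated EV library, and every untreated MUT library lay below both. In EV, HOXD10 went from 2.80, 2.51 and 2.89 CPM untreated to 2.49, 3.37 and 3.63 CPM treated. The corresponding HOXD10 values were 1.13, 1.01 and 1.54 and then 0.928, 1.24 and 1.11 CPM in WT. For MUT, HOXD10 gave 0.0501, 0 and 0.343 CPM and then 0.791, 0 and 0.523 CPM. HOXD10 showed the same order without overlap in untreated cells. Untreated MUT was lower than EV, with log2 differences of -3.73 ± 0.47 for HOXD11 and -4.31 ± 0.69 for HOXD10 (edgeR adjusted p 2.48e-05 and 0.00027). It was also lower than WT, at -2.42 ± 0.49 and -3.16 ± 0.74 (edgeR adjusted p 0.00166 and 0.00458). WT against EV gave -1.31 ± 0.37 for HOXD11 (edgeR adjusted p 0.0261), a call lost without 4 of the 6 libraries in turn, and -1.16 ± 0.50 for HOXD10 (edgeR adjusted p 0.157).

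The counts behind these values were small: HOXD11 summed to 218, 99 and 17 counts in untreated EV, WT and MUT, and HOXD10 to 138, 70 and 7. The 7 counts of HOXD10 in MUT were 1, 0 and 6. Without the third untreated MUT library the HOXD10 difference was -6.31 from EV and -5.14 from WT, and without the second it was -3.78 and -2.62, all still called by edgeR. Both had a mean log2 CPM under the level of 1 set for naming genes and were chosen after their values were seen. HOXD10 (chromosome 2, 176108790 to 176119942, plus strand) and HOXD11 (chromosome 2, 176104216 to 176109754, plus strand) share 452 exon bases on the same strand, so their estimated counts can be exchanged between them. Summed, they averaged 7.04 ± 0.788 CPM (SD, n = 3) in untreated EV, 2.97 ± 0.672 in WT and 0.449 ± 0.358 in MUT. All 3 differences of the sum were called by edgeR, at -3.95 ± 0.45 for MUT against EV (adjusted p 9.05e-06), -1.25 ± 0.35 for WT against EV (adjusted p 0.0249) and -2.70 ± 0.47 for MUT against WT (adjusted p 0.000474).

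**Figure D4:**
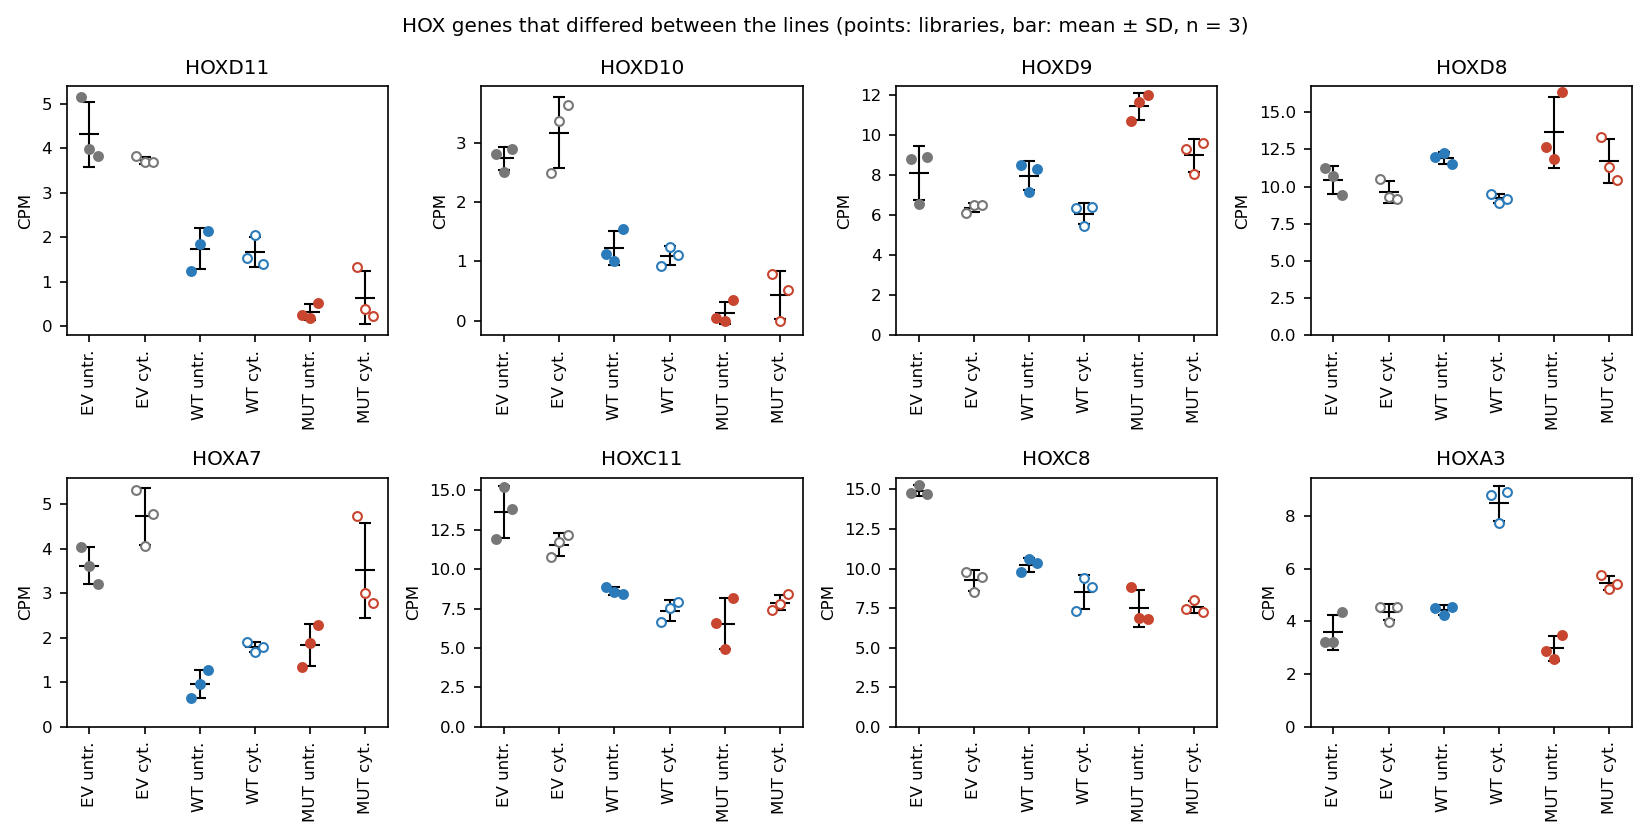
CPM of 8 HOX genes in the 6 groups, with a point per library (filled, untreated; open, cytarabine) and bars for the mean ± SD of 3 libraries. HOXD11 and HOXD10 step down from EV to WT to MUT, HOXD9 is highest in MUT, and HOXA7 is lowest in WT.

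Other HOXD genes did not follow them. Untreated HOXD9 was higher in MUT than in EV by 0.50 ± 0.13 and than in WT by 0.52 ± 0.13 on the log2 scale (edgeR adjusted p 0.011 and 0.00735), with all 3 MUT libraries above the 6 others. The call against EV was lost without the second untreated EV library, and both were lost in fits of the groups compared alone. HOXD8 was higher in MUT than in EV by 0.39 ± 0.13 (edgeR adjusted p 0.0371). That HOXD8 call was lost without 4 of the 6 libraries in turn and in a fit of the groups compared alone. HOXD9 and HOXD8 lie next to HOXD10 on the 3′ side (chromosome 2, 176122720 to 176124937, plus strand; 176129694 to 176132695). HAGLR, a noncoding RNA of the same cluster outside the naming rule, averaged 6.58 ± 0.762 CPM in untreated EV, 6.03 ± 0.323 in WT and 12.1 ± 1.56 in MUT. It was higher in MUT than in EV by 0.88 ± 0.14 (edgeR adjusted p 0.000222).

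HOXA7, a trunk gene, was lowest in WT. In EV, HOXA7 went from 4.03, 3.62 and 3.20 CPM untreated to 5.33, 4.06 and 4.79 CPM treated. The corresponding HOXA7 values were 0.638, 0.952 and 1.26 and then 1.90, 1.68 and 1.79 CPM in WT. For MUT, HOXA7 gave 1.35, 1.89 and 2.28 CPM and then 4.75, 3.02 and 2.79 CPM. In each line the treated HOXA7 values lay above the untreated ones, and cytarabine raised it by 0.92 ± 0.29 in WT and 0.94 ± 0.25 in MUT (edgeR adjusted p 0.0121 and 0.00398). The EV estimate was 0.39 ± 0.24 (edgeR adjusted p 0.192). Untreated WT and MUT libraries all lay below untreated EV, and WT lay below MUT. The log2 differences were -1.93 ± 0.28 between WT and EV, -0.98 ± 0.26 between MUT and EV and 0.95 ± 0.29 between MUT and WT (edgeR adjusted p 8.57e-05, 0.0114 and 0.0243). HOXA7 shares 1507 exon bases with HOXA-AS3. Their sum gave -1.84 ± 0.26, -0.93 ± 0.25 and 0.91 ± 0.27 (edgeR adjusted p 7.92e-05, 0.0114 and 0.0229). The HOXA7 call for MUT against WT was lost without 3 of the 6 libraries in turn, and that for MUT against EV without the first untreated MUT library. Both were also lost in fits of the groups compared alone. The cytarabine call in WT was lost without the first untreated WT library.

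In the HOXC cluster HOXC8, HOXC10 and HOXC11 were lower in both overexpressing lines than in EV. The EV replicates held HOXC11 at 11.9, 15.2 and 13.8 CPM untreated and 10.8, 11.7 and 12.2 CPM treated. HOXC11 stood at 8.88, 8.52 and 8.41 CPM in untreated WT and 6.63, 7.51 and 7.93 CPM in treated WT. Among MUT libraries, HOXC11 reached 6.57, 4.91 and 8.17 CPM untreated and 7.43, 7.80 and 8.41 CPM treated. HOXC11, a hindlimb gene, did not overlap between untreated EV and either other line. It differed by -0.66 ± 0.14 in WT and -1.05 ± 0.15 in MUT (edgeR adjusted p 0.00379 and 7.18e-05). HOXC8 differed by -0.54 ± 0.12 and -0.99 ± 0.12 (edgeR adjusted p 0.00422 and 1.91e-05), and was also lower in MUT than in WT, at -0.45 ± 0.12 (edgeR adjusted p 0.0134). The call against WT was lost without 3 of the 6 libraries in turn and in a fit of the groups compared alone. HOXC10 differed by -0.33 ± 0.10 and -0.54 ± 0.10 (edgeR adjusted p 0.0378 and 0.000964). The HOXC10 call in WT was lost without 5 of the 6 libraries in turn and under 1 of 8 other settings. HOXA11 and HOXB6 were lower in MUT than in EV, at -0.76 ± 0.16 and -0.69 ± 0.19 (edgeR adjusted p 0.00187 and 0.015). The HOXB6 call was lost without 2 of the 6 libraries in turn and in a fit of the groups compared alone. HOXA3 was lower in MUT than in WT, at -0.57 ± 0.16 (edgeR adjusted p 0.0144), a call lost without the second untreated MUT library and in a fit of the groups compared alone.

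**Figure D5:**
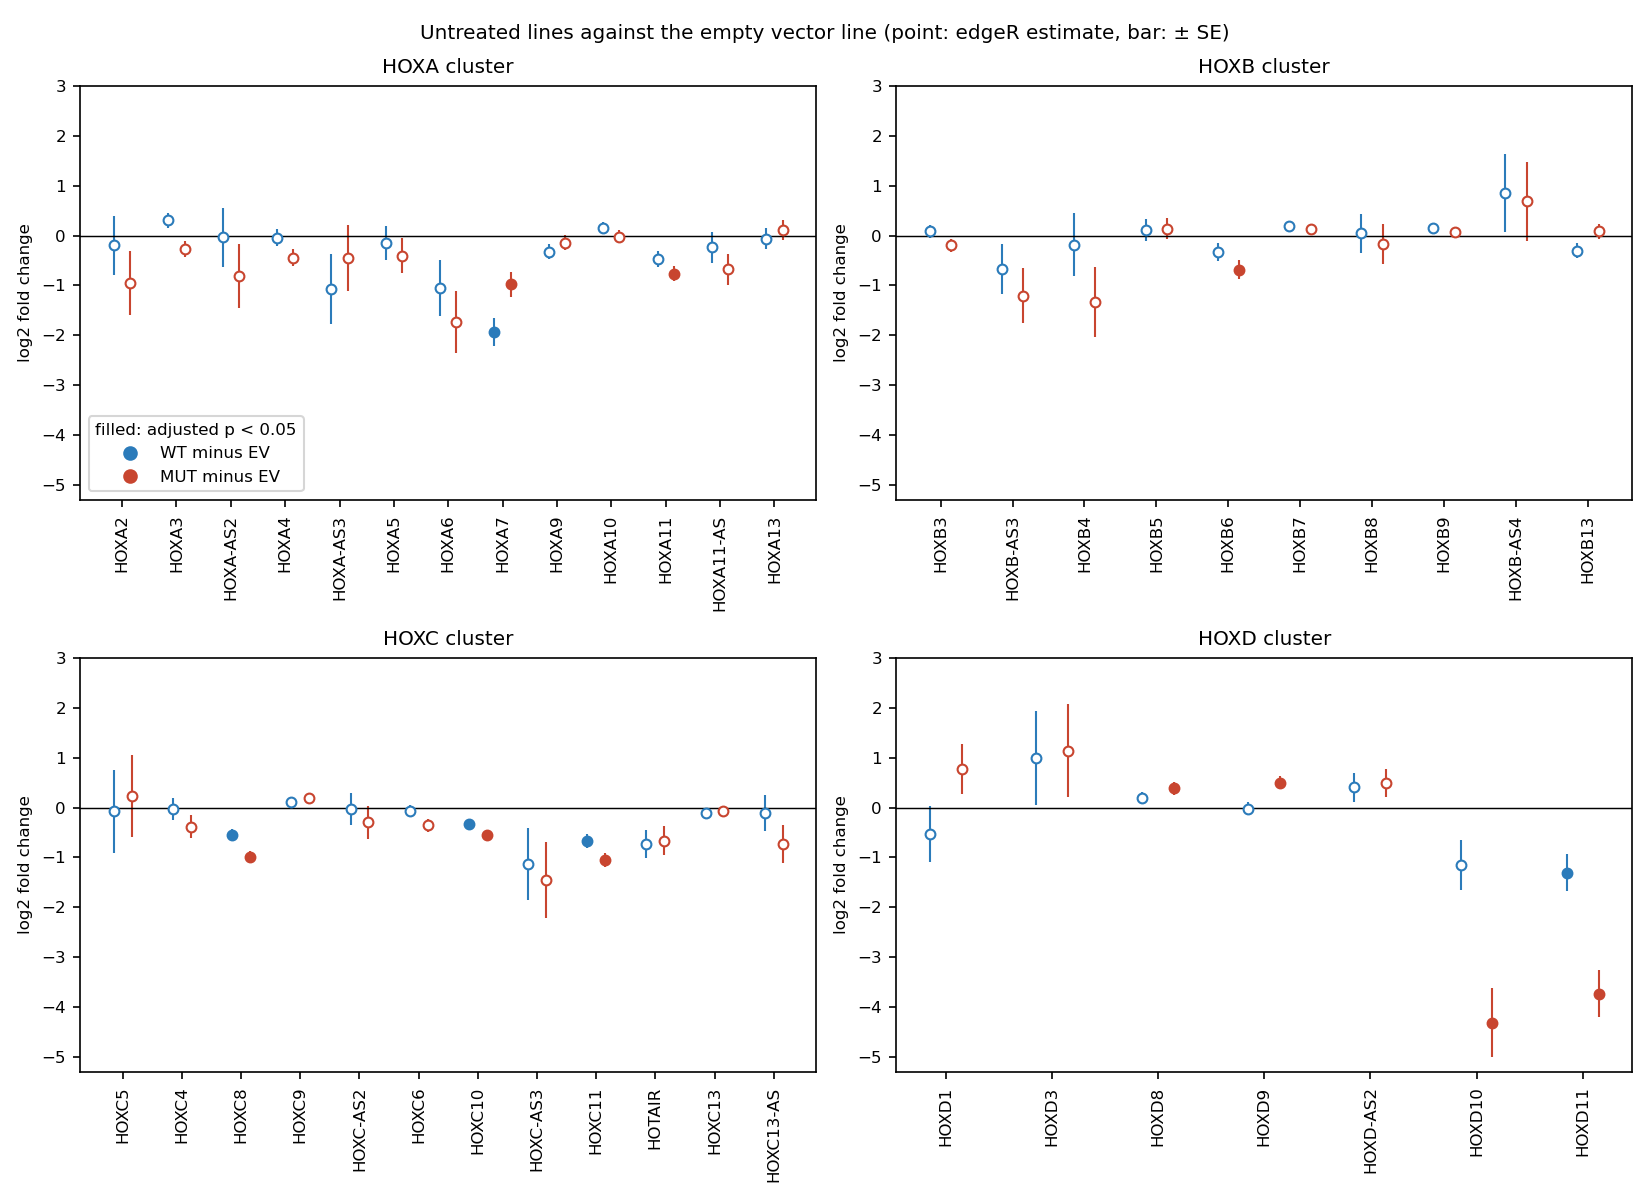
log2 fold change of untreated WT and untreated MUT against untreated EV (vertical axis, ± SE) for tested members of each cluster, without HOTTIP; filled points have an edgeR adjusted p under 0.05, and both contrasts share the EV libraries. HOXD10 and HOXD11 fall furthest below 0 for MUT, HOXA7 does for WT, and HOXB7 and HOXB9 lie near it.

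With cytarabine the lines differed in fewer members than untreated for MUT against EV and in more for WT against EV. The shares of all genes moved the same way, from 19.9% untreated to 14.0% treated and from 11.7% to 16.5%. MUT differed from EV in 6 members (2 higher, 4 lower), 13.6% against 14.0% of all genes. WT differed from EV in 9 (5 higher, 4 lower), 20.5% against 16.5%, and MUT from WT in 6 (2 higher, 4 lower), 13.6% against 19.8%. Higher and lower calls made up 4.55% and 9.09% of members between MUT and EV, beside 6.85% and 7.13% of all genes. They made up 11.4% and 9.09% between WT and EV, beside 7.41% and 9.12%, and 4.55% and 9.09% between MUT and WT, beside 10.4% and 9.48%. Treated and untreated cells share no library, so each pair of lines was compared in separate libraries. For MUT against EV, 5 members were called in the same direction both times, 50% of the untreated calls and 83.3% of the treated ones: HOXC10, HOXC11, HOXD10 and HOXD11 lower and HOXD9 higher. For WT against EV there were 3, 60% and 33.3%: HOXA7, HOXC11 and HOXD11, all lower. For MUT against WT there were 4, 66.7% of each: HOXA3 and HOXD11 lower, HOXA7 and HOXD9 higher. Of these treated calls, those of HOXC10, HOXC11 and HOXD9 for MUT against EV were lost without 3, 2 and 3 of the 6 libraries in turn, and those of HOXD11 and HOXA7 for MUT against WT without 4 and 1 of the 6. The matching overlap of calls over all genes was not computed, so nothing is read from the overlap shares about the HOX genes.

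In treated cells HOXD11 and HOXD10 were also lower in MUT than in EV, with log2 differences of -2.52 ± 0.41 for HOXD11 and -2.81 ± 0.55 for HOXD10 (edgeR adjusted p 0.000421 and 0.0019). Treated MUT was uneven in these genes, with summed HOXD10 and HOXD11 of 2.11, 0.383 and 0.741 CPM. Without the first treated MUT library the differences were -3.62 for HOXD11 and -3.52 for HOXD10. For WT against EV the calls of HOXD11 (-1.17 ± 0.37, edgeR adjusted p 0.0369) and HOXD10 (-1.53 ± 0.50, edgeR adjusted p 0.0406) were lost without 6 and 5 of the 6 libraries in turn. The sum of the 2 gave -1.32 ± 0.35 (edgeR adjusted p 0.014). HOXA3 and HOXA4 were higher in treated WT than in treated EV by 0.96 ± 0.15 and 0.61 ± 0.16 (edgeR adjusted p 0.000169 and 0.0123). HOXA3 was also higher in treated WT than in treated MUT, where the log2 difference was -0.64 ± 0.14 for MUT against WT (edgeR adjusted p 0.0039). HOXA7 was again lower in WT than in EV (-1.40 ± 0.25, edgeR adjusted p 0.00067), as was HOXC11 (-0.65 ± 0.14, edgeR adjusted p 0.00373). HOXA10 and HOXB9 were higher in treated WT than in treated EV, at 0.45 ± 0.12 and 0.34 ± 0.06 (edgeR adjusted p 0.0128 and 0.001). HOXB9 was lower in treated MUT than in treated WT, at -0.25 ± 0.06 (edgeR adjusted p 0.00884). The call of HOXA4 was lost without 2 of the 6 libraries in turn, that of HOXA10 without the second treated WT library, and that of HOXB9 against WT without the first treated MUT library. HOXC9 was higher than in treated EV by 0.30 ± 0.10 in WT and 0.37 ± 0.10 in MUT (edgeR adjusted p 0.0402 and 0.0135). Those HOXC9 calls were lost without 5 and 3 of the 6 libraries in turn and under 4 and 1 of 8 other settings.

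The question of the study, whether the response to cytarabine depends on the line, was tested as a difference between effects. No HOX member passed in any of the 3 tests with edgeR at an adjusted p of 0.05, where 0.214%, 0.285% and 1.00% of all genes did for MUT against EV, WT against EV and MUT against WT. At an unadjusted p of 0.05, 7, 5 and 4 of the 44 members passed, beside 15.8%, 9.96% and 15.4% of all genes. DESeq2 called 1, 0 and 0 members, the 1 being HOXC8 for MUT against EV. HOXC8 had the smallest p, with a difference of 0.70 ± 0.17 and an edgeR adjusted p of 0.0894. Without the first untreated MUT library, edgeR called HOXC8 and HOXB3 (differences 0.83 and 0.63, adjusted p 0.0142 and 0.0277). HOXB3 with all libraries gave 0.45 ± 0.17 (edgeR adjusted p 0.217). For HOXA3 and HOXA4, called in WT and MUT and not in EV, the differences of WT against EV were 0.65 ± 0.22 and 0.65 ± 0.23 (edgeR adjusted p 0.301 and 0.333). For MUT against EV they were 0.59 ± 0.22 and 0.80 ± 0.23 (edgeR adjusted p 0.211 and 0.122). A different response of these genes in the lines was thus not shown.

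Of the 44 tested members, 30 were called in at least 1 of the 12 comparisons and 14 in none. Those 14 were HOXA2, HOXA9, HOXA-AS2, HOXA11-AS, HOXB4, HOXB7, HOXB8, HOXB-AS4, HOXC4, HOXC-AS2, HOXC-AS3, HOXD1, HOXD3 and HOXD-AS2. HOXB7 and HOXA9 were well expressed, and the others did not exceed 7.29 CPM in any library. The matching count over all genes was not made, so nothing is read from the 30 and 14 about the HOX genes.

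Genes that work with the HOX factors were followed through the same comparisons. Of 8 tested TALE homeodomain cofactors, which bind DNA together with HOX proteins, 2, 2 and 4 rose and 2, 3 and 0 fell in EV, WT and MUT. The 4, 5 and 4 calls stand beside 49.1%, 49.0% and 56.3% of all genes called, so nothing is read from them about the list. MEIS1 fell in EV and WT by 0.33 and 0.47 (edgeR adjusted p 0.0104 and 0.000709). Among 24 chromatin regulators known for HOX clusters, 2, 2 and 5 rose and 12, 10 and 9 fell, with median log2 fold changes of -0.20, -0.19 and -0.08. That is 14, 12 and 14 of 24 called, again beside 49.1%, 49.0% and 56.3% of all genes, of which 22.9%, 22.7% and 25.9% were called lower. CTCF, whose sites divide the clusters, fell by 0.87, 0.95 and 0.80 (edgeR adjusted p 2.86e-07, 9.2e-08 and 5.18e-07). The polycomb subunit CBX7 rose by 0.47 ± 0.08, 0.72 ± 0.08 and 0.81 ± 0.08 (edgeR adjusted p 0.000113, 8.76e-07 and 1.29e-07). Other polycomb subunits fell in the 3 lines: BMI1 by 0.35, 0.54 and 0.15 (edgeR adjusted p 6.63e-05, 4.6e-07 and 0.0365) and CBX8 by 0.49, 0.44 and 0.42 (edgeR adjusted p 0.000476, 0.00123 and 0.00131), with RNF2 and RING1 also called lower in each line.

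Retinoic acid is a classical inducer of HOX genes. Of 12 tested genes of its uptake, metabolism and receptors, 8, 7 and 8 rose and 2 fell in each line. These 10, 9 and 10 calls stand beside 49.1%, 49.0% and 56.3% of all genes. Higher calls alone made up 26.1%, 26.3% and 30.4% of all genes. The medians were 0.56, 0.47 and 0.75 beside 0.05, 0.03 and 0.05 for all genes. In EV the 2 that fell were the receptor genes RARA and RXRB, at -0.44 and -0.64 (edgeR adjusted p 3.96e-05 and 7.23e-07). Any part of retinoic acid in the HOX results was not tested. STRA6, the retinol uptake receptor, rose by 1.497 ± 0.12, 1.51 ± 0.13 and 1.55 ± 0.12, and CRABP2, which carries retinoic acid to its receptor, by 1.06 ± 0.15, 1.30 ± 0.16 and 1.15 ± 0.15 (all edgeR adjusted p below the threshold). Of 16 tested genes flanking the clusters, 8, 7 and 8 rose and 4, 4 and 5 fell. That is 12, 11 and 13 called, beside 49.1%, 49.0% and 56.3% of all genes. HAGLR rose in EV by 0.99 ± 0.14 and in WT by 0.89 ± 0.14 (edgeR adjusted p 6.68e-06 and 2.33e-05), and its MUT estimate was 0.27 ± 0.13. No HOXD member tested singly was called higher, although uncalled HOXD estimates reached 1.56 in EV, 1.15 in WT and 1.71 in MUT. HOTAIRM1, a noncoding RNA of the HOXA cluster, was not called in any line (0.19 ± 0.22, 0.37 ± 0.21 and -0.16 ± 0.22).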

How the data were processed

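Estimated counts, deposited per gene without normalization, were 70.4% whole numbers. The authors added a second table whose normalized signal equals 1 plus a factor per library times the estimated count. Per the submitters' processing notes, STAR 2.6.1d, CASAVA and build hg38 were used. The counting tool and its use of strand are not given in the sources used here. Counts were rounded and analysed in edgeR 4.0.16 (R 4.3.3): filterByExpr, TMM factors, 1 quasi-likelihood fit of 18 libraries with 6 group coefficients, and Benjamini-Hochberg adjustment over 18226 genes at 0.05. SE is the absolute log2 fold change over the square root of F. The code was tested on simulated data for the WT cytarabine contrast over 18226 genes, recovering 84 of 100 genes changed by a log2 of 1 and 92 of 100 changed by 2. Values per library were given for the 3 highest members per kb of exon in each cluster, the 3 largest calls per direction and family of comparisons whose mean log2 CPM reached 1, and for HOTAIR and HOTTIP. Exon lengths came from GENCODE. Alternatives were DESeq2 1.42.0, other scaling factors, filters and groups, a replicate block and leaving out libraries. Members and lists were chosen with earlier results of these data known. Replicate libraries differed by more than sampling noise and were kept apart. Some genes covered by these rules are not reported here, although counts, sums and medians include them.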

Additional observations from a re-analysis of the deposited data

How the results depend on the processing

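Of 98 called values of HOX members, 55 stayed called in every planned setting, 43 lost the call in at least 1, and 0 changed sign. Fitting only the groups compared gave 6 members for untreated MUT against EV, 11 for untreated WT against EV and 2 for untreated MUT against WT. The order of MUT and WT against EV was thus the reverse of the main fit. After the filter of these fits 36, 34 and 36 members were left, and otherwise the cause was not tested. DESeq2 called 1 member for the difference of cytarabine effects of MUT against EV. In an alternative chosen after seeing the data, counts of overlapping genes were summed, and HOXC5 in MUT changed from -2.67 to 0.33 for HOXC4, HOXC5 and HOXC6 together. Leaving out 1 library at a time gave 12 to 15, 16 to 19 and 17 to 23 members for cytarabine in EV, WT and MUT. Untreated lines gave 8 to 13 for MUT against EV, 3 to 4 for WT against EV and 4 to 8 for MUT against WT. The count of 3 for untreated WT against EV came without the second EV, first WT or second WT library. Treated lines gave 3 to 5, 5 to 8 and 4 to 7 in the same order, with 3 for MUT against EV without the third treated EV or first treated MUT library and 5 for WT against EV without the third EV, first WT or second WT library. Differences between effects gave 0 to 2 for MUT against EV (2 without the first untreated MUT library) and 0 to 0 for the other pairs. Replicate numbers were not treated as pairs, since the labels do not say what they share. Of 9 same-numbered pairs of untreated and treated libraries, 2 had correlated deviations above 0.1, the highest at 0.326 in MUT. In 5 of the 9 the untreated library correlated best with its own number. With 3 libraries per group this check cannot exclude pairing. With a replicate block the counts were 15, 20 and 21 for cytarabine, 10, 5 and 6 for untreated lines, 6, 9 and 6 for treated lines and 0 for each difference. Members under about 1 CPM, such as HOXD10 in MUT, rest on few counts.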
